A study of Mus musculus with 26 samples.

Results

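The 10 glycolytic enzymes described here are Hk2, Gpi1, Pfkp, Aldoa, Tpi1, Gapdh, Pgk1, Pgam1, Pkm and Ldha. They were chosen by name as the enzymes that carry glucose to lactate, and all 10 were among the 35865 genes that had an annotated transcript and among the 14600 genes that were tested. Their expression was followed in TCRTg101, which are CD8+ T cells from Tg101 transgenic mice that carry a T cell receptor specific for the C1498 leukemia. The labels give the strain as C57BL/6, the genotype as wild type and the age as 6 weeks, while the methods describe Tg101 mice on a Rag2-/- background, so all groups shared this receptor. Cells were labeled with CellTrace Violet, a dye that is diluted at each division, and transferred into hosts that received C1498 cells intravenously a day later. They were sorted for RNA sequencing. The control group held 3 libraries, of which replicates 1 and 2 were naive cells at day 0 and replicate 3 came from untreated mice at day 18. Leukemia-bearing mice gave 2 early liver libraries (day 7), 3 mid liver libraries (days 13, 13 and 14), 2 late liver libraries (days 18 and 16), 2 early spleen libraries (day 7), 1 mid spleen library (day 14) and 1 library of undivided cells that kept the dye (CTVhi, day 18). The labels place the control and undivided cells in the spleen, so leukemia and liver cannot be told apart in a comparison of liver with control. A further library of naive cells was made with oligo-dT priming and entered no test. The labels do not say whether libraries of a group came from separate mice, and p-values then measure only the spread between these libraries.

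Glycolysis splits glucose into pyruvate in the cytosol and yields ATP without oxygen, and lactate dehydrogenase turns pyruvate into lactate to restore the cofactor NAD+. Naive T cells are known to run little glycolysis, and T cells that have been activated and divide raise glucose uptake and the enzymes of the pathway. Hexokinase, phosphofructokinase and pyruvate kinase catalyze its regulated steps.

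All 10 enzymes were higher in TCRTg101 from livers of leukemia-bearing mice at the mid and late time points than in control cells. The counts of the 10 genes together made up 0.378%, 0.277% and 0.308% of the 3 control libraries. They made up 1.45%, 0.9996% and 0.997% of the mid liver libraries and 1.74% and 1.13% of the late liver libraries. After TMM scaling (CPM, read counts relative to a library's scaled total, used below unless another unit is named), the summed level was 3023 ± 532 (SD, n = 3) in control, 12746 ± 4246 (SD, n = 3) in mid liver and 17853 ± 8588 (SD, n = 2) in late liver. The late mean was 5.91 times and the mid mean 4.22 times the control mean. In bulk RNA, fewer cells of a type and less RNA per cell cannot be told apart.

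When mid and late liver libraries were compared with control by the quasi-likelihood test of edgeR, adjusted over all genes after Benjamini and Hochberg, 10 of 10 enzymes rose, while 23.5% of all 14600 genes tested were called higher. The median log2 fold change was 2.25 for the enzymes and −0.05 for all genes, and adjusted p for the enzymes ran from 0.0051 to 0.00896. For the late group alone 10 of 10 rose (19.8% of all genes were called higher), and for the mid group alone 10 of 10 rose (17.3% of all genes). DESeq2 called 10 of 10 as well in each of these comparisons, with 49.7%, 42.5% and 37.3% of all genes called in either direction. In each of the 10 genes, the lowest of the 5 mid and late liver libraries lay above the highest control library, as in 19.6% of all genes tested (28.7% for late and 21.8% for mid liver alone). In all 10 they also lay above every undivided and spleen library, as in 13.6% of all genes. The plot of levels by library shows this separation for each enzyme.

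**Figure D1:**
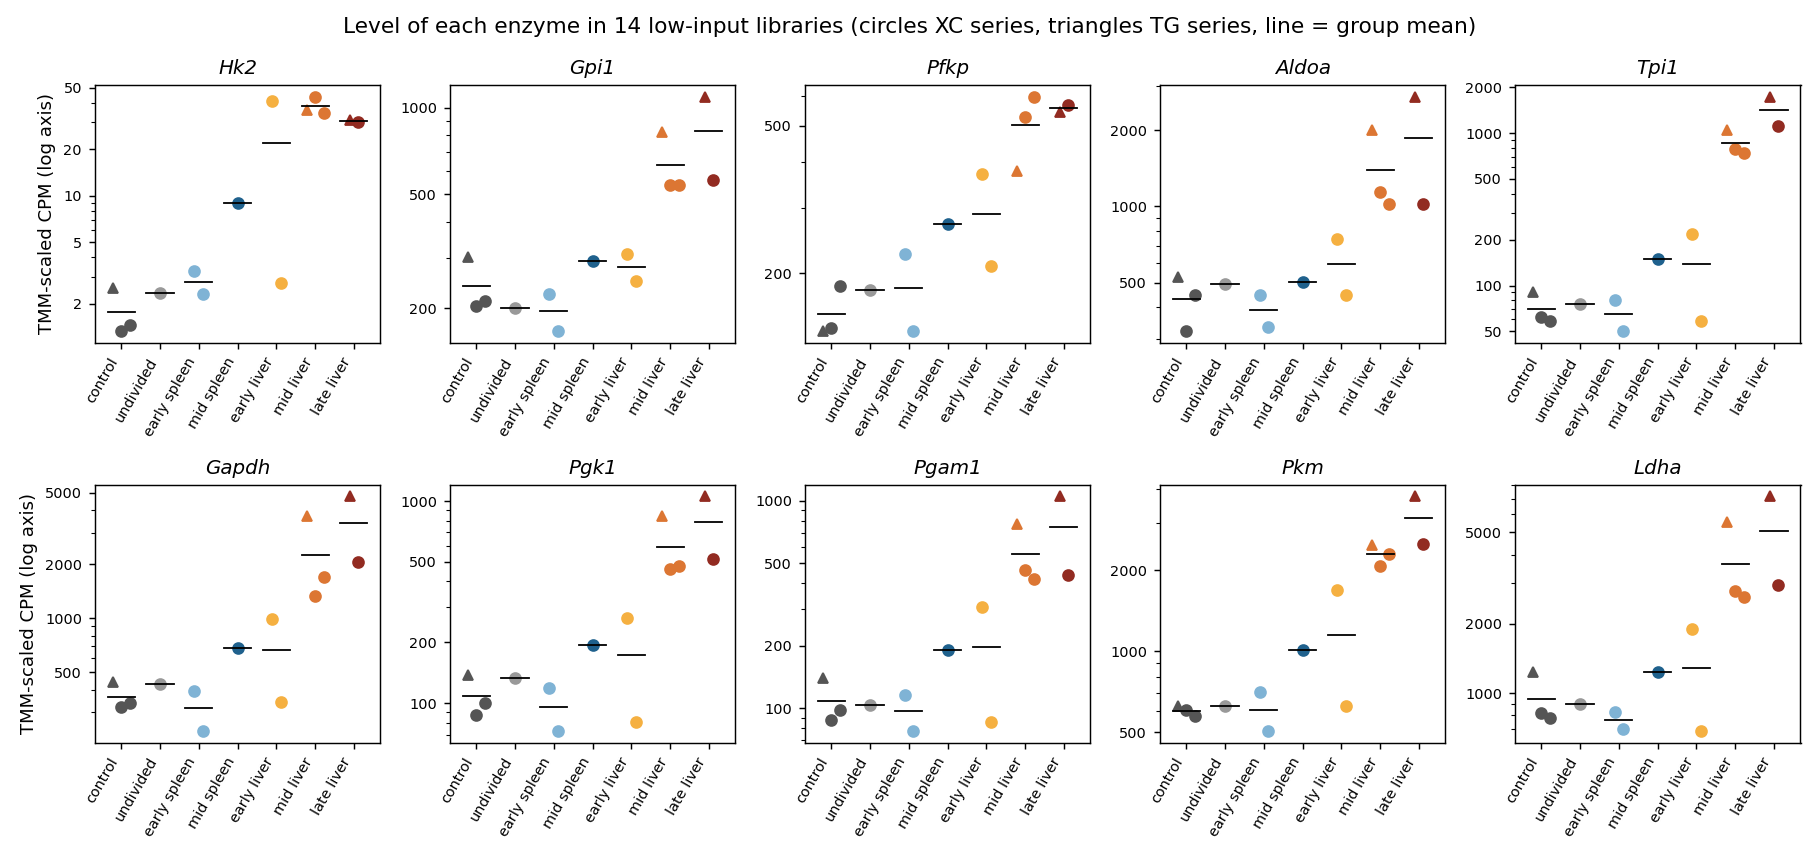
Level of each enzyme in TMM-scaled CPM (log axis) in 14 low-input libraries, by group; circles are libraries of the XC series, triangles libraries of the TG series, and the line is the group mean. In every panel the 5 mid and late liver libraries sit above the 3 control libraries, and the 2 early liver libraries lie apart from each other.

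The adjusted calls depended on particular libraries. Without control replicate 1, 0 of 10 enzymes passed for mid and late liver together, 2 of 10 for late and 0 of 10 for mid, and only 6, 148 and 1 of 14170 genes passed in all. Leaving out late replicate 1 or 2 keeps 1 late library, and the median log2 fold change of the late comparison was then 2.18 or 2.70. Without control replicate 2, 9 of 10 passed in the late comparison (23.8% of 14261 genes) and 0 of 10 in the mid comparison (0.00701%). Without mid liver replicate 1 or 3, 0 of 10 passed in the mid comparison (0% of 14194 and of 14387 genes). In every one of these fits all 10 enzymes kept an unadjusted p under 0.05 (with every library in the fit, 56.1% of all genes for mid and late liver together, 50.2% for late and 46.8% for mid), and the median log2 fold change of the enzymes stayed between 1.99 and 2.70.

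The libraries carry 2 series names in their titles, TG and XC, and the methods describe 2 sequencing batches, so the series was a term in every test. The TG series held 1 control, 1 mid liver and 1 late liver library. Within it the summed level in late liver was 6.59 times and in mid liver 4.86 times that in control. Within the XC series the same ratios were 4.33 and 3.79. All 10 enzymes were higher in mid and late liver within each series, and the share of all genes that were so was not computed. With 1 TG library per group, this order carries no test. A fit of the XC libraries alone called 0 of 10 enzymes (0% of 13295 genes), with 10 of 10 at an unadjusted p under 0.05.

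Other cells in the sorted samples differed between groups. The 7 T cell markers, such as Cd3e and Cd8a, were present in every library, with a summed level of 3844 to 8877 CPM. The summed level of 5 erythroid markers (globins and Alas2) was 5158 and 20151 CPM in the day 0 controls, 135 CPM in the day 18 control and 3.26 to 213.2 CPM in the liver libraries. The summed level of 8 myeloid markers was 1012, 156 and 20.8 CPM in the 3 controls and 9.63 to 52.3 CPM in the liver libraries. With both day 0 controls left out, 0 of 10 enzymes passed (0% of 13783 genes for mid and late liver together and for late, 0.00726% for mid), while 10 of 10 kept an unadjusted p under 0.05 and the median log2 fold change was 2.09.

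Hepatocyte RNA was also present in part of the liver libraries. The 11 hepatocyte markers summed to 272, 27.3 and 4.75 CPM in mid liver and 462 and 133 CPM in late liver, and to 323, 23.4 and 1.77 CPM in control, where Trf held 315 CPM in replicate 1. Albumin (Alb) was at 85.2, 8.43 and 0.907 CPM in mid and 131 and 24.3 CPM in late liver, against at most 0.0322 CPM in control. Pklr, the pyruvate kinase of liver and red cells, was at most 0.683 CPM in any library. The part of erythroid, myeloid and hepatocyte RNA in the enzyme values was not tested. No marker of C1498 cells was measured, so the part of leukemia cell RNA was not tested either.

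Hexokinase 2 (Hk2) catalyzes the entry step and was the scarcest of the enzymes. Its level was 2.55, 1.33 and 1.45 CPM in control, 35.7, 43.7 and 34.3 CPM in mid liver and 30.7 and 29.8 CPM in late liver. The groups did not overlap, and the values within mid and late liver were close to each other. The log2 fold change of mid and late liver against control was 4.23 (SE 0.85, adjusted p = 0.00896 by edgeR). The ratio of the late to the control mean was 17.0 in CPM and 9.29 in the deposited TPM. Hk1, the housekeeping hexokinase, was far less changed and did not pass (log2 fold change 0.38, SE 0.18, adjusted p = 0.102). Hk1 differed by series, with 78.0 to 112 CPM in the TG libraries and 178 to 313 CPM in the XC libraries.

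Phosphoglucose isomerase (Gpi1) and platelet phosphofructokinase (Pfkp) carry the next steps. Gpi1 was at 302, 204 and 212 CPM in control, 822, 536 and 538 CPM in mid and 1091 and 561 CPM in late liver. Its log2 fold change was the smallest of the 10 (1.48, SE 0.16, adjusted p = 0.0051 by edgeR). Pfkp was at 139, 142 and 185 CPM in control, 378, 528 and 599 CPM in mid and 544 and 569 CPM in late liver. Its log2 fold change was 1.76 (SE 0.24, adjusted p = 0.00515 by edgeR). The ratio of the late to the control mean for Pfkp was 3.58 in CPM and 2.51 in the deposited TPM.

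Fructose-bisphosphate aldolase A (Aldoa) splits the sugar in the pathway, and triosephosphate isomerase (Tpi1) interconverts the products. Aldoa was at 526, 322 and 449 CPM in control, 2011, 1136 and 1019 CPM in mid and 2713 and 1024 CPM in late liver, where the TG library was far above the XC library. Tpi1 was at 90.3, 61.9 and 58.2 CPM in control, 1053, 789 and 744 CPM in mid and 1735 and 1110 CPM in late liver. Tpi1 had a log2 fold change of 3.91 (SE 0.43, adjusted p = 0.0051 by edgeR) and Aldoa of 1.70 (SE 0.26, adjusted p = 0.00594 by edgeR). Tpi1 was the only enzyme besides Pkm in which both late libraries lay above all 3 mid libraries (7.81% of all genes).

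The later steps of the pathway run from glyceraldehyde-3-phosphate dehydrogenase (Gapdh), which makes NADH, through phosphoglycerate kinase (Pgk1), which makes ATP, to phosphoglycerate mutase (Pgam1). Gapdh was at 440, 320 and 335 CPM in control, 3704, 1326 and 1703 CPM in mid and 4778 and 2057 CPM in late liver. Pgk1 was at 138, 87.6 and 101 CPM in control, 840, 459 and 475 CPM in mid and 1054 and 519 CPM in late liver. Pgam1 was at 140, 87.8 and 97.8 CPM in control, 773, 461 and 420 CPM in mid and 1047 and 438 CPM in late liver. The log2 fold changes were 2.69, 2.51 and 2.40, in that order, and all passed. In each of the 3 genes the TG liver libraries were the highest and the TG control was the highest of the controls.

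Pyruvate kinase (Pkm) makes pyruvate and ATP, and lactate dehydrogenase A (Ldha) makes lactate. Pkm was at 625, 602 and 571 CPM in control, 2489, 2082 and 2309 CPM in mid and 3766 and 2513 CPM in late liver, with a log2 fold change of 2.10 (SE 0.31, adjusted p = 0.00574 by edgeR). Ldha was at 1229, 820 and 777 CPM in control, 5539, 2775 and 2616 CPM in mid and 7168 and 2961 CPM in late liver, with a log2 fold change of 2.00 (SE 0.32, adjusted p = 0.00616 by edgeR). Ldhb, the isozyme that favors the return of lactate to pyruvate, was lower without passing the test (log2 fold change −0.64, SE 0.26, adjusted p = 0.0727). The plot of changes against control sets the 10 enzymes side by side in pathway order.

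**Figure D2:**
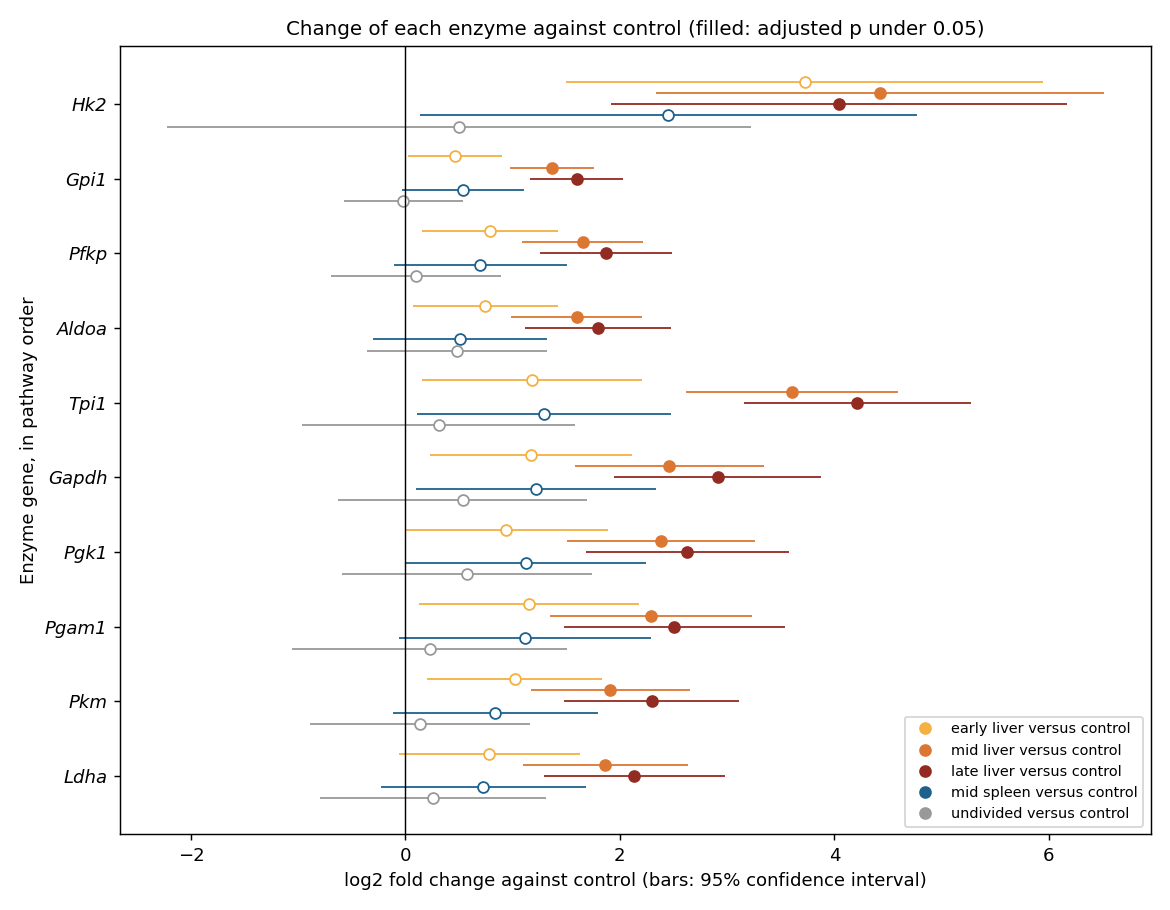
Log2 fold change of each enzyme against control with its 95% confidence interval, in pathway order from top to bottom, for early, mid and late liver, mid spleen and undivided cells; filled circles passed adjusted p under 0.05. The mid and late liver points are filled for all 10 enzymes, from 1.37 for Gpi1 to 4.43 for Hk2 in mid liver, and no other point is filled.

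Levels are comparable between genes only per length, as TPM (transcript abundance scaled for length and depth, as deposited, n = 3 control and 2 late liver libraries). In control, Ldha had the highest level (621 ± 23 TPM, SD), followed by Aldoa (302 ± 66), Gapdh (270 ± 34) and Pkm (256 ± 30), and the last 3 lay within their spread of each other. Gpi1 was at 157 ± 13 TPM, Pfkp at 81.3 ± 23 TPM, followed by Pgam1, Pgk1 (57.1 ± 8.7) and Tpi1 (46.8 ± 0.81), with Pgam1 and Pgk1 within their spread of each other. Hk2 had the lowest level, 0.736 ± 0.49 TPM. In late liver Ldha was again the highest (2161 ± 301 TPM), Gapdh came next (1657 ± 321 TPM), and Tpi1 had moved to the fifth place (669 ± 115 TPM). Hk2 remained the lowest, at 6.83 ± 2.5 TPM. The place of Gapdh in this order counts it without its copies, described below, which raise its CPM from 365 to 869 in control and from 3418 to 8269 in late liver when added. The ratio of the late to the control mean was smaller in TPM than in CPM for each of the 10 enzymes, from 2.3 (Gpi1) to 14.3 (Tpi1), with Gapdh at 6.13 against 9.36 and Ldha at 3.48 against 5.38.

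Early liver libraries differed from each other. In replicate 1 all 10 enzymes lay above every control library, as did 30.8% of all genes. In replicate 2 the enzymes were at 0.727 to 1.54 times the control mean. There 5 of 10 lay inside the range of the controls, a share that was not computed over all genes. The summed level was 6816 CPM in replicate 1 and 2784 CPM in replicate 2. Against control, 0 of 10 enzymes passed in edgeR (0% of all genes), 8 of 10 had an unadjusted p under 0.05 (10.2% of all genes), and DESeq2 called 1 of 10 (2.4% of all genes). With replicate 2 left out 9 of 10 passed (13.2% of 14363 genes) and the median log2 fold change was 1.56, and with replicate 1 left out 0 of 10 passed (1 of 14198 genes) and it was 0.17. The lone library in such a fit is assumed to vary like the other groups.

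The enzymes of early liver replicate 1 had not all moved equally far. Each library was placed on a line that runs from the mean in control (0) to the mean over mid and late liver (1) in log2 CPM. Hk2 stood at 1.06 in early liver replicate 1, at 40.9 CPM, which lies among the mid liver values. The other 9 enzymes stood between 0.26 (Gpi1) and 0.72 (Pfkp). The mid spleen library showed a like order, with Hk2 at 0.55 and the others between 0.14 (Aldoa) and 0.47 (Pfkp). The mean set to 1 averages TG and XC libraries, while early liver replicate 1 and mid spleen are of the XC series. The XC mid and late liver libraries stood at 0.71 to 0.80 for Aldoa and at 1.02 to 1.12 for Pfkp. The order of the enzymes thus also moves with series, and its part was not tested. These positions are descriptions of individual libraries and carry no test. The map of positions shows the values for all 14 low-input libraries.

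**Figure D3:**
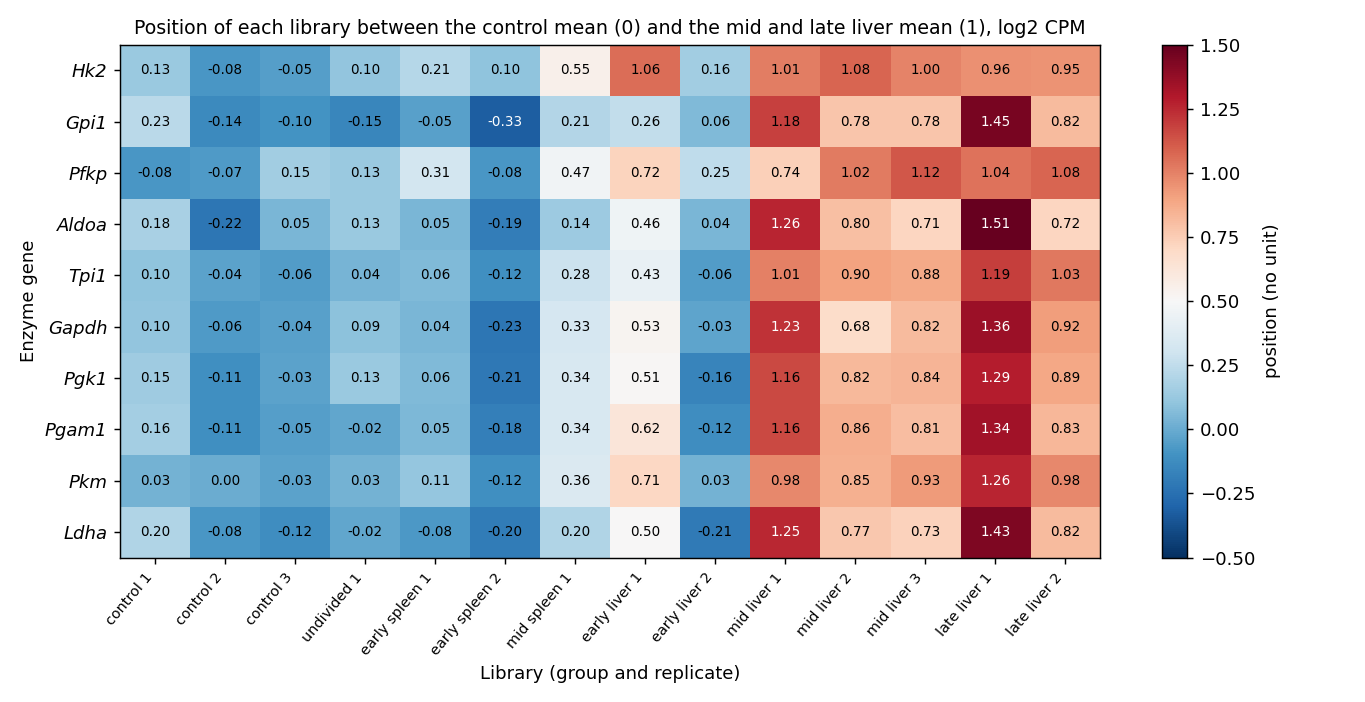
Position of each library (columns) for each enzyme (rows) between the control mean, set to 0, and the mid and late liver mean, set to 1, computed on log2 CPM; color and printed value give the position, without a unit. Early liver replicate 1 spans 0.26 to 1.06, mid spleen 0.14 to 0.55, and early liver replicate 2, the early spleen and the undivided libraries stay between −0.33 and 0.31.

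A list of 8 cell cycle genes, among them Mki67 and Top2a, varied in a similar way over the libraries. Its summed level was 274 to 334 CPM in control, 333 CPM in undivided cells, 1131 CPM in early liver replicate 1 and 266 CPM in replicate 2. It was 954 CPM in mid spleen, 1182 to 2822 CPM in mid liver and 2106 to 3020 CPM in late liver. How much of the change in the enzymes goes with division was not tested.

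Late and mid liver were not distinguished by the test. The late against mid comparison called 0 of 10 enzymes in edgeR (0% of all genes) and 0 of 10 in DESeq2 (0.219% of all genes), and 0 of 10 had an unadjusted p under 0.05 (5.34% of all genes). Log2 fold changes ran from −0.38 for Hk2 (95% interval −2.42 to 1.65) to 0.61 for Tpi1 (−0.39 to 1.61). These intervals leave room for changes in either direction for both genes.

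Undivided cells from leukemia-bearing mice stayed near control. Their summed level was 3141 CPM, and 8 of 10 enzymes lay within the range of the 3 controls. The share of all genes within that range was not computed. The test called 0 of 10 enzymes in edgeR (0% of all genes) and in DESeq2 (0%), and 0 of 10 had an unadjusted p under 0.05 (1.25% of all genes). The group held 1 library, so intervals were wide, for example −0.63 to 1.70 for Gapdh on the log2 scale. Late liver against undivided cells gave log2 fold changes of 1.32 (Aldoa) to 3.90 (Tpi1). There 0 of 10 passed in edgeR (0% of all genes, adjusted p 0.102 to 0.179), 10 of 10 had an unadjusted p under 0.05 (25.9% of all genes), and DESeq2 called 10 of 10 (12.9% of all genes).

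In the spleen, where leukemia and tissue are not changed together against control, the values were lower than in liver at the mid time point, without passing the test. Early spleen libraries had summed levels of 3143 and 2283 CPM, and 0 of 10 enzymes passed against control in edgeR (0% of 15449 genes) or DESeq2 (0.0906%), with 0 of 10 at an unadjusted p under 0.05 (6.28%). The mid spleen library had a summed level of 4532 CPM, and 8 of 10 enzymes lay above all controls, as did 28.6% of all genes. The mid spleen test called 0 of 10 enzymes in edgeR (0.00647% of all genes) and in DESeq2 (0.0777%), with 4 of 10 at an unadjusted p under 0.05 (5.15%). All 10 enzymes were lower in mid spleen than in each mid liver library, as in 28.8% of all genes.

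The test of mid liver against mid spleen called 0 of 10 enzymes in edgeR (0.00647% of all genes) and 1 of 10 in DESeq2 (0.11%), with 7 of 10 at an unadjusted p under 0.05 (5.81%). Its largest difference was that of Tpi1, with a log2 fold change of 2.34 (95% interval 0.90 to 3.77, adjusted p = 0.711 by edgeR). Early liver against early spleen called 0 of 10 enzymes in edgeR (0% of all genes) and 1 of 10 in DESeq2 (0.382%), with 5 of 10 at an unadjusted p under 0.05 (9%). Without early liver replicate 2 it called 7 of 10 (973 of 15307 genes). The comparisons with control share the same control libraries, and those of early liver share its 2 libraries.

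Gapdh is known for many processed pseudogenes, and kallisto divides reads among near-identical transcripts. Of the 31-base words in the Gapdh transcripts, 28.1% also occurred in other annotated genes, and 48 genes each shared at least 10% of them. The copies together had more CPM than Gapdh itself, 118% to 177% of its level in the 14 low-input libraries, and 70.6% in the oligo-dT library. The bulk lay in Gm10359 and Gm12671, which had the same value in every library, and in Gm7336. Gm10359 was at 214.3, 131 and 143 CPM in control and at 2219 and 927 CPM in late liver, so it moved with Gapdh. Gm7336 had no counts in the oligo-dT library and was at 114 to 233 CPM in control. The late to control ratio was 9.36 for Gapdh alone and 9.51 with its copies added, so the split had little bearing on the fold but much on the level.

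The copies of Pgk1 and Pgam1 took a share that differed by series. Pgk1 shared 54.7% of its words with other genes, and its copies held 4.22% to 7.45% of its own level in the TG libraries and 17.4% to 31.9% in the XC libraries. Pgam1 shared 37.1% of its words, and its copies held 0.443% to 8.54% in the TG and 19.6% to 27.8% in the XC libraries. With copies added, the late to control ratio went from 7.22 to 6.90 for Pgk1 and from 6.84 to 6.63 for Pgam1. Pkm (22.9% shared) and Gpi1 (14.1%) each had 1 partner over 10%, with at most 0.41% of their level. Ldha, Aldoa, Tpi1, Pfkp and Hk2 had no partner over 10%. With copies added, 10 of 10 enzymes still passed in mid and late liver together, in late liver and in mid liver.

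**Figure D4:**
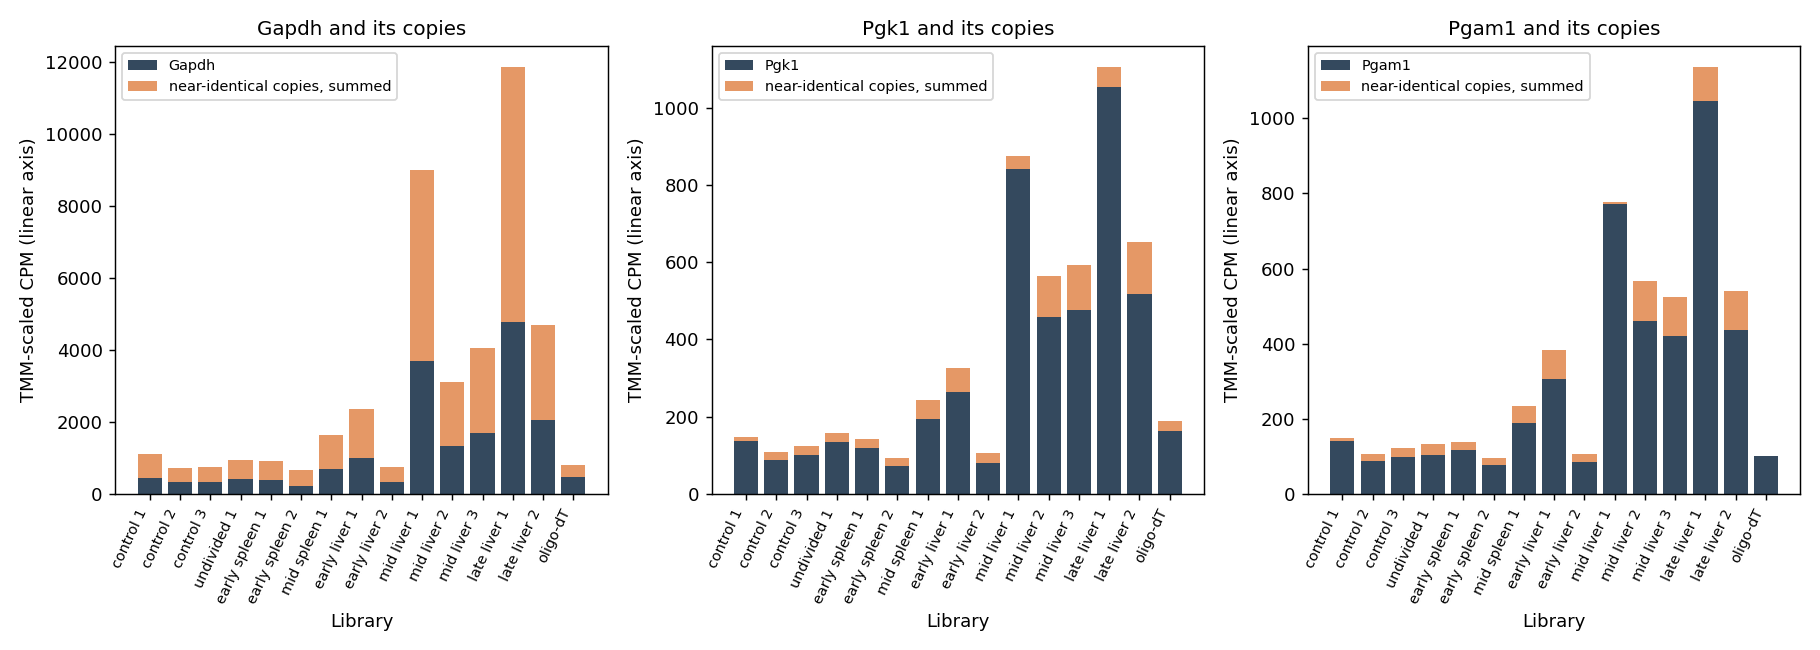
TMM-scaled CPM (linear axis) of Gapdh, Pgk1 and Pgam1 (dark) and of the genes that share at least 10% of their 31-base words (light, stacked) in 15 libraries. The light part exceeds the dark part for Gapdh in the 14 low-input libraries and is the smaller part for Pgk1 and Pgam1 in every library.

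Pkm encodes the M1 and M2 forms of pyruvate kinase, which differ by a pair of mutually exclusive exons of 167 bases. M2 is known as the form of proliferating cells and M1 as that of muscle and brain. Both exons are shown because the share of the forms rests on them. They come from the GENCODE vM21 transcripts Pkm-202 (M1) and Pkm-201 (M2), on the plus strand of GRCm38, and capitals mark the 64 bases at which they differ (61.7% identical).
Pkm M1 exon, chr9:59675029-59675195: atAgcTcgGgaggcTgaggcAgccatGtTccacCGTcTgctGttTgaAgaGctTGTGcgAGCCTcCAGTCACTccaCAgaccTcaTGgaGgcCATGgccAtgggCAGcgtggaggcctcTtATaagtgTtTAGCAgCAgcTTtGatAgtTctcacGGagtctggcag
Pkm M2 exon, chr9:59675568-59675734: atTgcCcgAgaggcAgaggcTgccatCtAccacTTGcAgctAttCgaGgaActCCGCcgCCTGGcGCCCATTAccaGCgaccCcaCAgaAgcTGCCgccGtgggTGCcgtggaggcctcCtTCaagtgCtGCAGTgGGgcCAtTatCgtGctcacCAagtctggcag

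Between these transcripts, M2 was the more abundant form in every library. Its share of the summed TPM of Pkm-201 and Pkm-202, with the other Pkm transcripts left out, was 90.5%, 92.0% and 89.0% in the 3 controls, 93.3%, 89.0% and 88.6% in mid liver and 93.3% and 91.1% in late liver. The ranges of control and of liver overlapped. M2 went from 188 to 237 TPM in control to 782 and 901 TPM in late liver, and M1 from 19.7 to 29.4 TPM to 56.5 and 88.0 TPM. Both forms were thus higher in late liver than in any control. The undivided library had an M2 share of 85.3% and the mid spleen library of 87.7%. The oligo-dT library stood apart with 68.4%. The TG liver libraries had the highest shares, while the TG control (90.5%) lay between the XC controls (92.0% and 89.0%). The part of the series in this value was not tested.

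Part of the counts lay in transcripts annotated as retained intron, with the highest share in Gpi1 and Pfkp in control. This share was 15.4% to 22.5% of Gpi1 counts in control and 3.39% to 12.7% in mid and late liver. For Pfkp it was 14.3% to 24.2% in control and 4.74% to 10.1% in mid and late liver. Gapdh had 5.76% to 10.9% in control and 0.952% to 5.13% in mid and late liver, and Aldoa 4.60% to 6.58% and 0.583% to 3.71%. The ranges did not overlap in these 4 genes. Nor did they in Pgam1 (0.361% to 1.11% in control, 0.00844% to 0.227% in mid and late liver) or Ldha (0.270% to 0.905%, 0.0328% to 0.180%). They overlapped in Pgk1 and Pkm. This share was not computed over all genes, so a fall common to many genes cannot be told from one of the enzymes. Tpi1 went the other way, with 1.03% to 6.44% in control and 3.24% to 14.6% in mid and late liver, and its ranges overlapped. For Pgk1, Pgam1 and Ldha this share was at most 1.11% in control. Levels given here sum all transcripts of a gene.

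The levels of the 10 enzymes moved together over the 14 low-input libraries. The 45 pairs had Pearson's r between 0.83 (Pfkp and Aldoa) and 0.99 (Pgk1 and Pgam1) on log2 CPM, with a median of 0.97. Within the 11 XC libraries alone r ran from 0.89 to 0.99. These values describe libraries that fall into a low and a high set and share group and series, so they carry no test.

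The promoters of the 10 enzymes were searched for short motifs known from metabolic control. ACGTG is the core bound by hypoxia-inducible factors, and CACGTG is the E-box that Myc binds, which holds ACGTG on both strands. The RefSeq promoter windows of GRCm38.p6 gave 14 start sites for the 10 enzymes, and the 250 bases before each were read on both strands. ACGTG occurred for 6 of 10 enzymes, against 18.5% of 27025 genes in the table. These were Hk2, Ldha, Aldoa, Pkm, Pgam1 and Pgk1. CACGTG occurred for 1 of 10, Ldha, against 6.86% of all genes. A gene with more start sites had more windows in which a match could fall. A match is a description of letters, and no match says only that these letters are absent from the window. The windows with at least 2 matches are shown, with the matches in capitals, in the direction of transcription.
Hk2, chr6:82774455-82774704, minus strand: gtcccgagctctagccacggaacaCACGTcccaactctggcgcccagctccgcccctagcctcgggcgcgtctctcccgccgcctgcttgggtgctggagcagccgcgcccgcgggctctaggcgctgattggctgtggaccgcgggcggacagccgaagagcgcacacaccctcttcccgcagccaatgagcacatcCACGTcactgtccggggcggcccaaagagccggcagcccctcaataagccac
Ldha, chr7:46845554-46845803, plus strand: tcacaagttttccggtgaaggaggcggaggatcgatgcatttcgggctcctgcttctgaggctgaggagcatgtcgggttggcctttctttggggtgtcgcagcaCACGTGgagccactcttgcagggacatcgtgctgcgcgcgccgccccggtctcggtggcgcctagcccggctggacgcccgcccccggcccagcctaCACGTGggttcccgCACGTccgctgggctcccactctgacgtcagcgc
Pgk1, chrX:106186850-106187099, plus strand: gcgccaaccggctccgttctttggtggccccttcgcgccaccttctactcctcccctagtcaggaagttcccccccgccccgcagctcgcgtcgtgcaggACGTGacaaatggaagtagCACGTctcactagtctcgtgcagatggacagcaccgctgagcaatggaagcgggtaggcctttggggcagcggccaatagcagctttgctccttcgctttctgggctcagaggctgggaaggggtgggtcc
The Ldha window held 5 matches to ACGTG, of which 4 lie in the 2 CACGTG sequences, while the Hk2 and Pgk1 windows held 2 each. Tpi1, with a log2 fold change of 3.91, had no match in its window.

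Of the factors that bind these motifs, Hif1a rose in mid and late liver (log2 fold change 1.57, SE 0.37, adjusted p = 0.0116 by edgeR). Its level was 71.0, 124 and 116 CPM in control, 98.9, 478 and 469 CPM in mid and 138 and 599 CPM in late liver, where the low values belong to the TG series. Myc was at 114, 116 and 119 CPM in control, 283, 532 and 335 CPM in mid and 249 and 161 CPM in late liver, and did not pass (log2 fold change 1.25, SE 0.46, adjusted p = 0.0525). Its highest level was 685 CPM, in early liver replicate 1. Whether Hif1a or Myc acts on the enzymes was not tested.

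Other glycolytic isozymes were divided in direction. Of 13 tested of 19 listed, 4 rose (Pfkl, Aldoc, Eno1 and Eno3) and 3 fell (Hk3, Adpgk and Pgam2) in mid and late liver, with a median log2 fold change of 0.38. These shares are near those over all genes, of which 23.5% were called higher and 47.3% in either direction in this comparison. In late liver alone 4 rose and 2 fell, while 37.5% of all genes were called in either direction. Eno1, the enolase that completes the pathway between Pgam1 and Pkm, was at 700, 748 and 920 CPM in control, 2612, 2298 and 2243 CPM in mid and 3749 and 2718 CPM in late liver. Its log2 fold change was 1.77 (SE 0.19, adjusted p = 0.0051 by edgeR), inside the range of the 10 enzymes. Pfkl, the liver-type phosphofructokinase, rose by 1.25. Aldoc and Eno3 rose by 2.43 and 2.24 at low levels, with Aldoc at most 5.25 CPM. Hk3, a myeloid hexokinase, fell by 3.05 and was highest in the controls with the most myeloid RNA (12.3 and 6.46 CPM).

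Of 4 glucose and lactate carriers listed, 4 rose in mid and late liver together (23.5% of all genes were called higher), with a median log2 fold change of 1.04. In late liver alone 3 of 4 passed, without Slc16a1 (19.8% of all genes). Slc16a3, the exporter of lactate known as MCT4, was at 2.57, 2.01 and 2.00 CPM in control, 48.3, 76.6 and 52.5 CPM in mid and 77.9 and 92.0 CPM in late liver. Its log2 fold change of 4.98 (SE 0.51, adjusted p = 0.0051 by edgeR) exceeded that of each of the 10 enzymes. In early liver replicate 1 it was at 5.51 CPM, far from its later level. The glucose carriers Slc2a1 and Slc2a3 rose by 1.25 and 0.83 and the lactate carrier Slc16a1 by 0.72.

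Regulators of glycolytic flux went in both directions. Of 8 tested, 3 rose (Hif1a, Pfkfb3 and Tigar) and 3 fell (Pfkfb2, Pfkfb4 and Txnip), with a median log2 fold change of 0.72, while 47.3% of all genes were called in either direction. In late liver alone 1 rose (Hif1a) and 1 fell (Pfkfb2), while 37.5% of all genes were called in either direction. Txnip, which restrains glucose uptake, was at 1064, 1146 and 1133 CPM in control, 80.0, 582 and 305 CPM in mid and 166 and 304 CPM in late liver. It fell by 2.17 on the log2 scale (SE 0.56, adjusted p = 0.0180 by edgeR). In early liver it was at 487 CPM in replicate 1 and 1978 CPM in replicate 2. Pfkfb3, which makes the activator of phosphofructokinase, rose by 0.71, and Pfkfb2 fell by 1.74.

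Genes of pyruvate entry into mitochondria changed in both directions. Of 12 tested of 13 listed, 4 rose (Mpc1, Dlat, Dld and Pdk3) and 3 fell (Pdk1, Pdk2 and Pdp1), with a median of 0.07. This share is near the 47.3% of all genes called in either direction. In late liver alone 2 rose and 1 fell, while 37.5% of all genes were called in either direction. Pdk3 and Pdk1, kinases that switch pyruvate dehydrogenase off, changed in opposite directions, by 1.86 and −1.23. Pdk3 was at 29.2 to 31.4 CPM in control and 164 and 111 CPM in late liver. In the pentose phosphate pathway, which branches from glucose 6-phosphate, 5 of 7 rose and 0 fell (23.5% of all genes were called higher), with log2 fold changes from 0.59 for Rpe to 1.35 for transketolase (Tkt), while Taldo1 (0.50) and Rpia (0.09) did not pass. Of 4 gluconeogenic enzymes tested of 7 listed, 3 rose (G6pc3, Pck2 and Pcx) and 0 fell, against the same 23.5% of all genes, with Pck2 at 1.24, while Fbp1, Fbp2 and G6pc were too low to test.

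**Figure D5:**
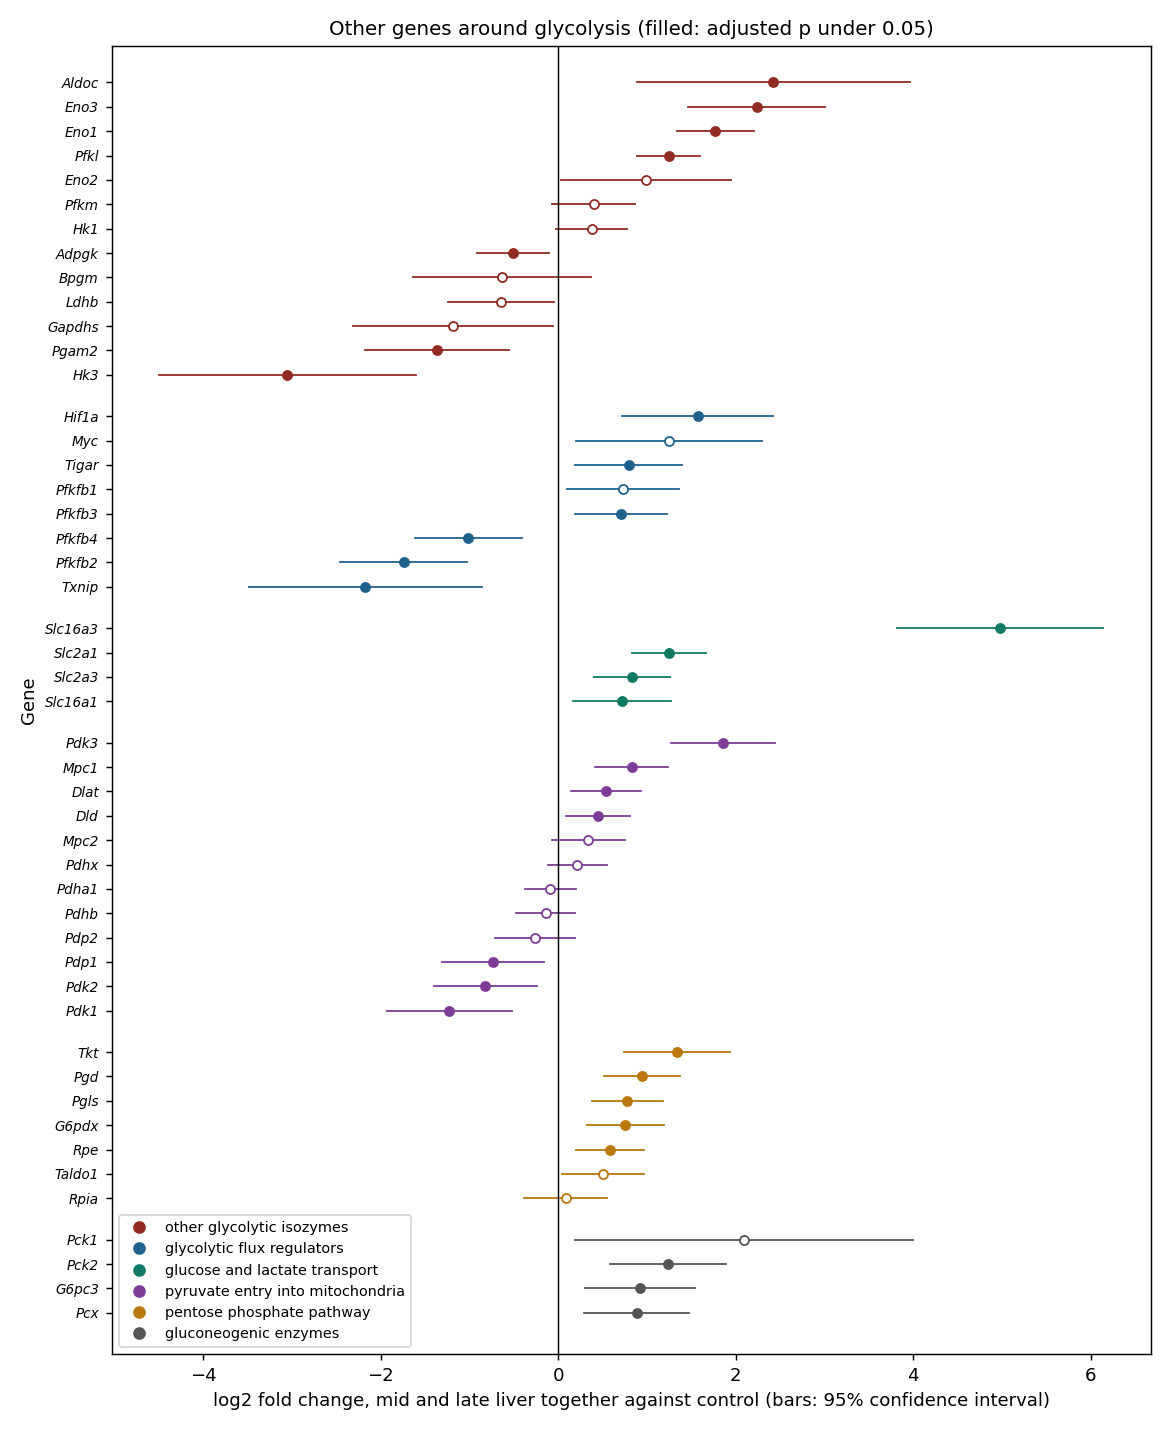
Log2 fold change of mid and late liver together against control, with its 95% confidence interval, for the tested genes of 6 lists around glycolysis; filled circles passed adjusted p under 0.05. The lactate exporter Slc16a3 lies furthest to the right (4.98) and Hk3 furthest to the left (−3.05).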

How the data were processed

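The authors sequenced low-input RNA libraries on an Illumina HiSeq and quantified transcripts with kallisto (mm10 and GRCm38 in the submitters' processing notes). The deposited values are estimated counts per transcript and, beside them, TPM, which the authors' tool scaled for length and depth. For each gene, the estimated counts of its transcripts were added up (genes from GENCODE vM21 on GRCm38, since the authors' annotation is not given in the sources used here; 98.18% of transcripts matched), runs of a library were added together, and sums were rounded. This gave 15 libraries from 26 runs. Totals were 22918996 to 71358287 in the 14 low-input libraries and 23189213 in the oligo-dT library, so counting error is small and the number of libraries limits the precision.

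The filter required 10 or more counts in 6 or more libraries. Tests used edgeR 4.0.16 (robust quasi-likelihood, two-sided) in R 4.3.3 with group and series as terms, in 11 libraries (control, undivided and liver) or 14 (with spleen), and Benjamini-Hochberg adjustment over all genes at 0.05. Levels are CPM with TMM factors (0.73 to 1.23). Counts were simulated with 200 genes changed, the same means in all libraries otherwise and no difference between series. On these, the test of mid and late liver against control recovered 4.5% of genes changed by 1 on the log2 scale. It recovered 84.5% of those changed by 2 and 95% of those changed by 4. Of the calls, 18.2%, 6.6% and 7.3% were false, in that order. In the data 47.3% of all genes were called in either direction in this comparison, so recovery there can differ. Alternatives were DESeq2 1.42.0, another scaling, no filter, no series term, the first run alone, counts of copies added, day 0 controls alone, all 14 libraries and each library left out. Fits of the XC series alone and with the day 18 control alone were added after seeing the data. Sharing between genes was measured as 31-base words on either strand, and partners with at least 10% were added.

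The enzymes and all gene lists were chosen with earlier results of these data known. The genes named are the 10 enzymes, from each pathway list up to 5 called genes with the largest change plus Eno1, Hk1, Pfkl, Ldhb, Hif1a and Myc, the 5 genes most like the enzymes, and partners that share words. Adpgk, Pfkfb3, Dlat and Dld complete small counts and were named after their values were seen. Figures were drawn with matplotlib 3.10.9.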

Additional observations from a re-analysis of the deposited data

Results flagged for a closer look

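The oligo-dT library of naive cells entered no comparison. In it, 4 of the 10 enzymes lay above all 3 low-input control libraries, with Hk2 at 5.78 CPM, Gpi1 at 475 CPM, Gapdh at 465 CPM and Pgk1 at 163 CPM. It differs from the controls in how the library was made.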

How the results depend on the processing

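The 10 of 10 calls for mid and late liver together, for late liver and for mid liver against control were kept under DESeq2, another scaling, no filter, no series term, the first run alone, copies added, day 0 controls alone and all 14 libraries. In these settings 9.49% (mid liver, no series term) to 49.7% (mid and late liver together, DESeq2) of all genes were called in either direction. Leaving out each library in turn gave 0 to 10 enzymes in each of these 3 comparisons, 0 to 9 for early liver against control and 0 to 7 for early liver against early spleen. In the fits of XC libraries alone and of the day 18 control alone, 0 of 10 passed in all 3. Fewer samples enter these fits, and 0 or 1 of all genes passed there. DESeq2 called 1 of 10 for early liver against control, for early liver against early spleen and for mid liver against mid spleen, and 10 of 10 for late liver against undivided cells. Without the filter on low counts, 6 passed for early liver against control (5.02% of all genes), 10 for late liver against undivided cells (8.51%), 4 for early liver against early spleen (3.0%), 3 for mid spleen against control (1.93%) and 5 for mid liver against mid spleen (2.31%); the cause was not tested. For early liver against control, leaving out each library gave log2 fold changes of −0.058 to 1.84 for Tpi1, −0.15 to 1.55 for Pgk1, −0.036 to 1.79 for Pgam1 and −0.13 to 1.33 for Ldha, the lowest without replicate 1 and the highest without replicate 2. The late to control ratio was smaller in the deposited TPM for all 10 enzymes. It moved by more than the spread between replicates for 3, to 9.29 for Hk2, 2.51 for Pfkp and 3.65 for Pkm, against 17.0, 3.58 and 5.24 in scaled CPM, and for Pfkp it was 2.83 in unscaled CPM. No paired analysis was possible because the labels give the libraries no shared replicate numbers.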

Other observations

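Outside the enzymes, 5845 genes with a mean log2 CPM of at least 5 were ranked by Pearson's r to the mean standardized level of the 10 enzymes over the 14 low-input libraries. The 5 most alike were Gm10359 and Gm12671, the Gapdh copies that carry the same values (r = 0.99), and then Slc29a1, a nucleoside carrier, Pdk3 and Rilpl2 (r = 0.99 for each). Slc29a1 was at a mean of 46.3 CPM in control, 473 CPM in mid liver and 789 CPM in late liver, and at 315 and 54.9 CPM in the early liver libraries. Rilpl2 went from a mean of 39.3 CPM in control to 233 CPM in mid and 383 CPM in late liver, with 142 and 33.9 CPM in early liver. Each of these genes was high in early liver replicate 1 and near control in replicate 2, as the enzymes were. This follows from the choice, since the ranking used these same libraries. Gm10359 and Gm12671 also share words with Gapdh, which is part of the mean they were ranked against. The likeness is a description of libraries that share group and series.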
